A study of Mus musculus with 17 samples.

Results

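The red cell membrane skeleton was followed here in mouse plasma cell-free RNA (cfRNA) through 5 genes, Slc4a1 (band 3), Ank1 (ankyrin-1), Epb42 (protein 4.2), Sptb (beta spectrin) and Epb41 (protein 4.1), of the 49585 genes quantified. The genes were chosen by name and not by a threshold on their values, though with earlier results of these data known, and each of the 5 had reads in at least 1 library. Plasma came from wild type C57BL/6J mice, 13 weeks old by the labels, of the MHU-1 mission to the International Space Station. The 3 groups were mice in microgravity (MG, 6 libraries), mice in flight on a centrifuge giving artificial 1-G (AG, 6 libraries) and ground control mice (GC, 5 libraries), each library from 1 mouse. MG against AG compares gravity within flight, and both flight groups share the GC libraries as their reference on the ground.

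The red cell membrane is held in shape by a mesh of spectrin tetramers on its inner face. Band 3, the anion exchanger of the membrane, is tied to the mesh by ankyrin-1 and protein 4.2, and protein 4.1 fastens the spectrin and actin junctions to glycophorin C. Inherited loss of these proteins gives hereditary spherocytosis or elliptocytosis. Circulating red cells have no nucleus, and the RNA they carry is what remains from the reticulocyte. Several of these genes are also used outside the red cell: Epb41 in many tissues, and Ank1 and Sptb in skeletal muscle among others.

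RefSeq promoter windows (GRCm38.p6) were matched for 3 of the 5 genes, Sptb, Epb41 and Epb42. The sequences before the outermost start of each are printed because the reads of these genes behaved differently, with Epb41 the most read, Sptb without a resolved difference between groups and Epb42 nearly unread. Each runs 5′ to 3′ on the minus strand of the chromosome, covering the 250 bases before the start: chr4:132075314-132075563 for Epb41, chr12:76710548-76710797 for Sptb and chr2:121036878-121037127 for Epb42. Capitals mark matches, on either strand, to 6 letters of a GATA site (GATA with A or T before it and A or G after it) and to the KLF letters CCNCNCCCN, where N is any base.
Epb41: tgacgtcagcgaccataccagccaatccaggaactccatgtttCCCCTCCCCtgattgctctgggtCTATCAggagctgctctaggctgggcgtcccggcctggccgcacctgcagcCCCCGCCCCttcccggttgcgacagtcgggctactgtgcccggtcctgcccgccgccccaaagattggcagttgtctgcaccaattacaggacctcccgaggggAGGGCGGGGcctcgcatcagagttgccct
Sptb: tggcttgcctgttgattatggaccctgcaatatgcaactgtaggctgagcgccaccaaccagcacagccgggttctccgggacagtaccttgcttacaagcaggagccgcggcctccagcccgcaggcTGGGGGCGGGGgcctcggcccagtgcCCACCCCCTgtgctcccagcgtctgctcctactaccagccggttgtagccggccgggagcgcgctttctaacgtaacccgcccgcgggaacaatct
Epb42: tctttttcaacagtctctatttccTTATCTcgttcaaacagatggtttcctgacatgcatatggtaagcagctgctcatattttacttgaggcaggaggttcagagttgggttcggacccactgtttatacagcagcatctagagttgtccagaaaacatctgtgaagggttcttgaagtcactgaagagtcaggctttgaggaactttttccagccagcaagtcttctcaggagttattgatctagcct
Epb41 held 1 GATA match and 3 KLF matches, Sptb 0 GATA and 3 KLF matches (2 of them within the longer run), and Epb42 1 GATA and 0 KLF matches. Such letters are common. A GATA match was in 26.5% and a KLF match in 45.8% of all 32851 promoter windows of this length. Epb41 has 2 further RefSeq starts, whose windows held 0 and 6 KLF matches and 0 GATA matches each.

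The libraries were shallow, with 84657 to 277682 counts each. A few genes took most of them: the 4 genes above 5% of the counts held 86.9 to 91.7% of a library in AG, 70.6 to 83.5% in MG and 76.9 to 83.1% in GC. Of 12605 genes with any count, 272 passed edgeR's filter on low counts and 6270 had at least 5 reads over the 17 libraries. Globin genes, the defining red cell markers, had reads in every group, and 4 of them held 92.2% of the 29825 reads on a list of 21 red cell genes.

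The 5 skeleton genes had 903 reads in all, 16 to 88 per library, and most were from Epb41. Epb41 had 671 reads (74.3%) in 17 of 17 libraries and Slc4a1 147 reads (16.3%) in 16. Sptb had 41 reads in 14 libraries, Ank1 39 reads in 12, and Epb42 5 reads in 3. Slc4a1 and Epb41 passed the filter on low counts, while Sptb, Ank1 and Epb42 did not and were tested among the genes with at least 5 reads.

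Read numbers favour long genes, and per length Slc4a1 and Epb41 were close. On the deposited RPKM scale, which divides reads by gene length and mapped reads, Slc4a1 was at 0.599 ± 0.262 in AG (SD, n = 6), 0.339 ± 0.342 in MG (n = 6) and 0.614 ± 0.376 in GC (n = 5). Epb41 was at 0.788 ± 0.376, 0.440 ± 0.253 and 0.799 ± 0.452 in the same groups. The level of Slc4a1 was above that of Epb41 in 5 of 17 libraries, so the order of this pair is not separated beyond the spread. Both stood above the other 3 genes, Epb41 in 17 of 17 libraries and Slc4a1 in 16. Sptb was at 0.0431 ± 0.0388, 0.0541 ± 0.0685 and 0.0613 ± 0.0536, and Ank1 at 0.0352 ± 0.0587, 0.00857 ± 0.0109 and 0.112 ± 0.0541. Sptb was above Ank1 in 8 of 17 libraries, and these neighbours in the order were not separated either.

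**Figure D1:**
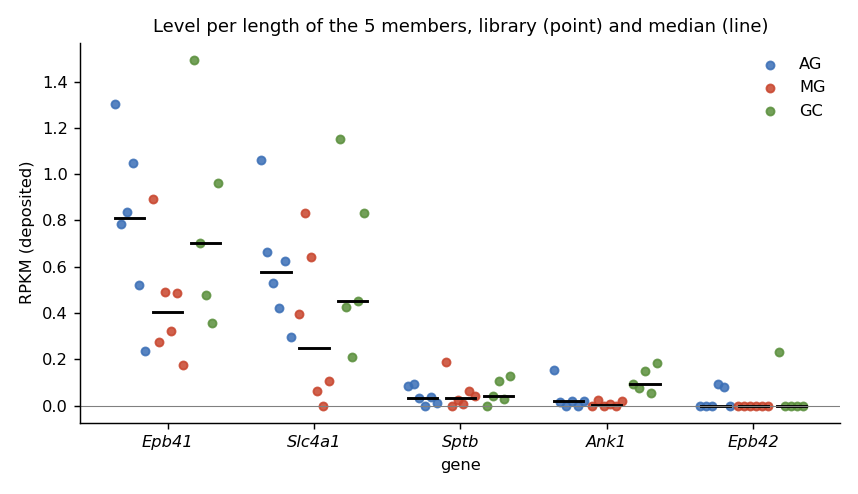
Deposited RPKM (y axis) of the 5 genes (x axis) in each library (points, coloured by group), with the group median as a black line. Epb41 and Slc4a1 stand above Sptb, Ank1 and Epb42, at group means from 0.339 to 0.799 RPKM, and their points overlap each other.

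Slc4a1 codes for band 3, the most abundant protein of the red cell membrane. Its gene lies on chr11:102348824-102366203, minus strand (GRCm38, GENCODE M21), with 4891 exonic bases. The AG libraries 1 to 6 had 15, 14, 14, 8, 7 and 10 reads, the MG libraries 6, 12, 10, 3, 0 and 2, and the GC libraries 9, 8, 4, 12 and 13. In counts per 1000000 reads of the tested genes after TMM scaling (TMM-CPM), Slc4a1 ran from 63.2 over a median of 95.1 to 131 in AG, and from 0 over 27.8 to 76.0 in MG. In GC the values were 65.7, 29.7, 24.8, 120.4 and 54.3. On this scale 5 of 6 MG libraries were below every AG library, the ranges of MG and AG overlapped through MG 3, and GC spread across both.

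In microgravity Slc4a1 was at 34.2 ± 27.9 TMM-CPM against 98.0 ± 29.7 under artificial 1-G, a log2 fold change of -1.50 (SE 0.58). By edgeR's quasi-likelihood test the difference met the study's criterion, an unadjusted p under 0.05 with a fold change over 1.5. It did not pass after Benjamini-Hochberg adjustment over the 272 genes (edgeR, adjusted p = 0.244).

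Epb41 codes for protein 4.1, which stabilises the contact of spectrin with actin. It lies on chr4:131923413-132075321, minus strand, with 15942 exonic bases. In AG it had 60, 54, 72, 65, 19 and 26 reads, in MG 44, 13, 25, 50, 41 and 11, and in GC 38, 43, 30, 31 and 49. After scaling, AG ran from 244 over a median of 377 to 593 TMM-CPM and MG from 62.5 over 179 to 406, while the GC libraries were at 277, 159, 186, 311 and 204.5. As with Slc4a1, 5 of 6 MG libraries lay below every AG library. The exception, MG 4, stood inside the AG range.

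Epb41 was at 191 ± 123 TMM-CPM in MG against 402 ± 135 in AG, a log2 fold change of -1.08 (SE 0.43). It too met the study's criterion by edgeR's quasi-likelihood test and missed the adjusted threshold (edgeR, adjusted p = 0.244). Thus both skeleton genes deep enough for the filter were lower in MG than in AG by the criterion. Of all 272 genes, 13.2% met it in either direction and 8.46% lower in MG. With an adjusted p under 0.05 there were 0 of the 2 genes and 0% of all genes, although 36 genes had an unadjusted p under 0.05. DESeq2 gave the same pair adjusted p of 0.0983 for Slc4a1 and 0.0747 for Epb41, and leaving out any 1 of the 17 libraries kept both past the criterion (edgeR, adjusted p from 0.151 to 0.426 for Slc4a1 and from 0.0560 to 0.521 for Epb41).

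**Figure D2:**
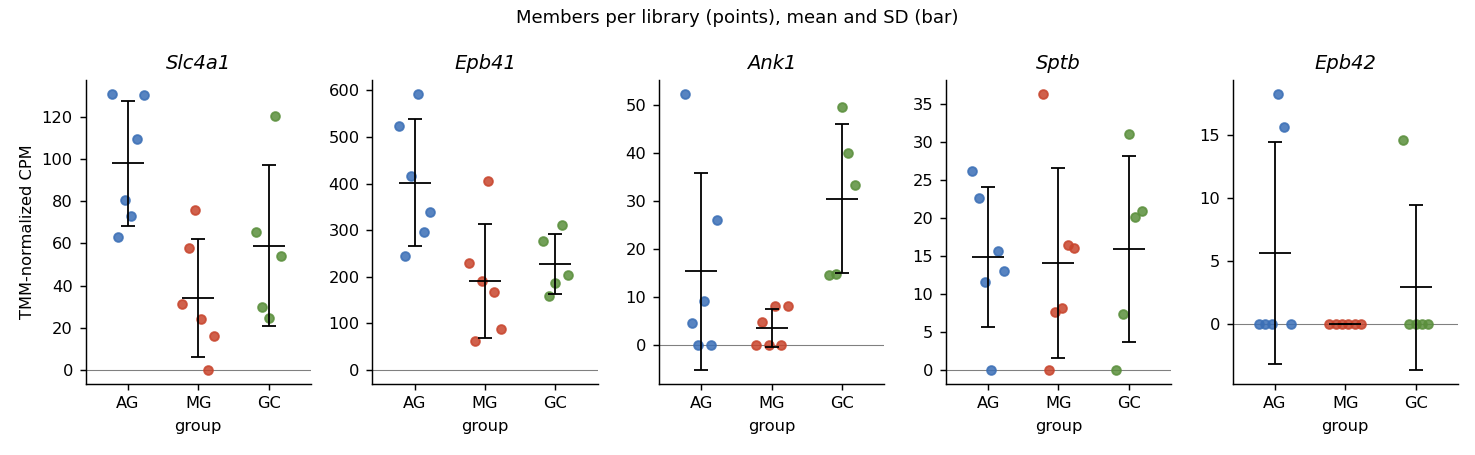
TMM-CPM (y axis) of the 5 genes in each library (points) of AG, MG and GC, with mean and SD as black bars; each gene has its own scale. In Slc4a1 and Epb41 5 of 6 MG points lie below all AG points, and in Ank1 all 6 MG points lie below all 5 GC points.

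Against the ground, neither gene passed in either flight group. In MG minus GC the log2 fold change was -0.73 (SE 0.61) for Slc4a1 and -0.25 (SE 0.44) for Epb41 by edgeR, with an adjusted p of 0.994 for both. In AG minus GC it was 0.76 (SE 0.59) for Slc4a1 and 0.83 (SE 0.45) for Epb41 by edgeR, with adjusted p of 0.601 and 0.422. The criterion was met by 4.41% of all genes in MG against GC and by 11.8% in AG against GC. The adjusted threshold was passed by 0% in MG against GC, where 12 genes had an unadjusted p under 0.05, and by 1.47% in AG against GC. GC lay between AG and MG in mean TMM-CPM for both genes, with 59.0 ± 38.3 for Slc4a1 and 228 ± 63.9 for Epb41. The comparisons with GC did not resolve this order. On mean RPKM GC stood at 0.614 beside 0.599 in AG for Slc4a1, and at 0.799 beside 0.788 for Epb41. Without a scaling factor Slc4a1 in AG against GC was -0.059 (edgeR). For Epb41 in AG against GC the criterion was met by edgeR's exact test (0.95, adjusted p = 0.252), by DESeq2 (0.81, adjusted p = 0.303) and with the replicate block (edgeR, 0.88, adjusted p = 0.390), and without a scaling factor the direction turned, at -0.11.

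The size of the difference between MG and AG rested on how the values were scaled and tested. Without a scaling factor the log2 fold change was -0.39 (edgeR, adjusted p = 0.60) for Slc4a1 and -0.013 (adjusted p = 0.987) for Epb41, while the median over all 272 genes moved from 0.17 to 1.27. A scaling factor moves every gene alike, so the distance of both genes from that median is much the same in either case by construction. On the deposited RPKM, limma on log2(RPKM + 1) gave -0.28 and -0.30 (adjusted p = 0.476 for both), with an all-gene median of 0.26. With a pseudocount of 0.1 the values were -1.03 and -0.70 (limma, adjusted p = 0.445 for both), with an all-gene median of 0.69, since at these low RPKM a pseudocount of 1 compresses the fold change. Among the 6270 genes with at least 5 reads, edgeR gave -1.27 (adjusted p = 0.406) and -1.04 (adjusted p = 0.425). None of these settings met the criterion for either gene.

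**Figure D3:**
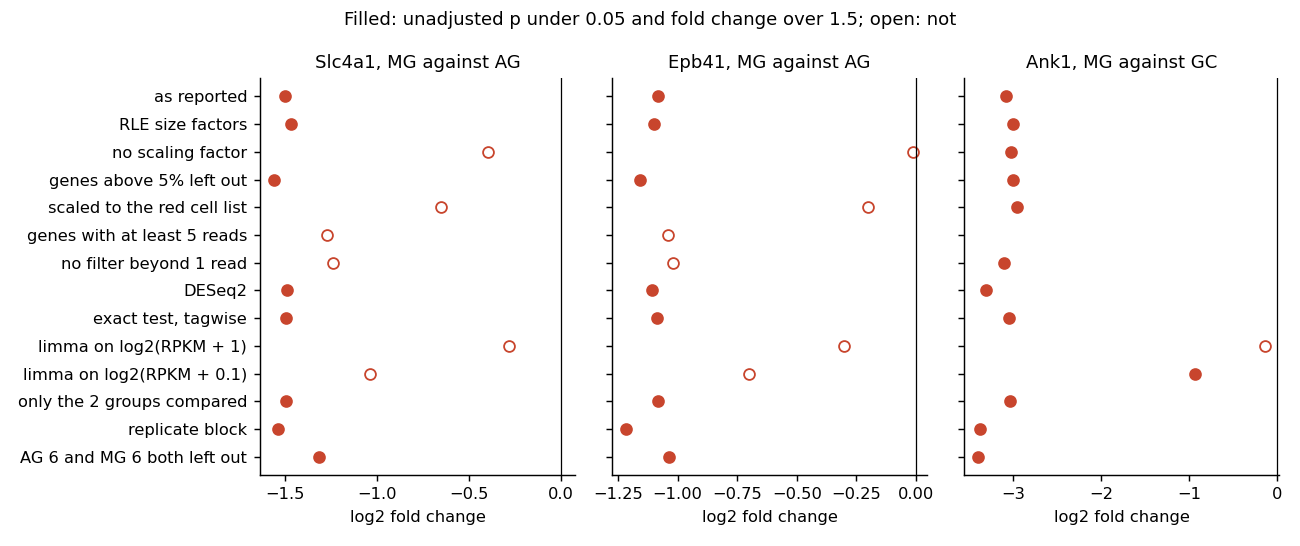
Log2 fold change (x axis) of Slc4a1 and Epb41 in MG against AG and of Ank1 in MG against GC under each way of processing (y axis), filled where the study's criterion was met. Slc4a1 ranges from -1.56 to -0.28 and Epb41 from -1.22 to -0.013, with values nearer 0 from unscaled counts, the red cell list and RPKM; the reported Ank1 value is that from genes with at least 5 reads, and the Ank1 values nearest 0 are those on log2(RPKM + pseudocount).

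Set against other red cell RNA, the pair was closer between AG and the other groups, but hardly so between MG and GC. The red cell list summed to 10326 to 25989 TMM-CPM in AG, 3137 to 19598 in MG and 6476 to 19135 in GC. Per 1000 reads of that list, Slc4a1 had a median of 5.61 reads in AG (4.14 to 10.2) and 4.06 in MG (0 to 7.27), and the GC libraries had 3.43, 4.58, 2.38, 13.9 and 7.51. Epb41 had a median of 25.0 in AG (16.3 to 33.7) and 21.4 in MG (7.87 to 33.2), and 14.5, 24.6, 17.9, 35.9 and 28.3 in GC. All ranges overlapped. With the libraries scaled to the red cell list the log2 fold change in MG against AG was -0.65 for Slc4a1 (adjusted p = 0.371) and -0.20 for Epb41 (adjusted p = 0.672) by edgeR, neither past the criterion, while the median over all genes was 1.20. Under that scaling MG against GC was -0.67 for Slc4a1, beside -0.73 as reported, and -0.18 for Epb41, beside -0.25 (edgeR). In plasma, fewer cells shedding RNA and less RNA per cell cannot be told apart.

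**Figure D4:**
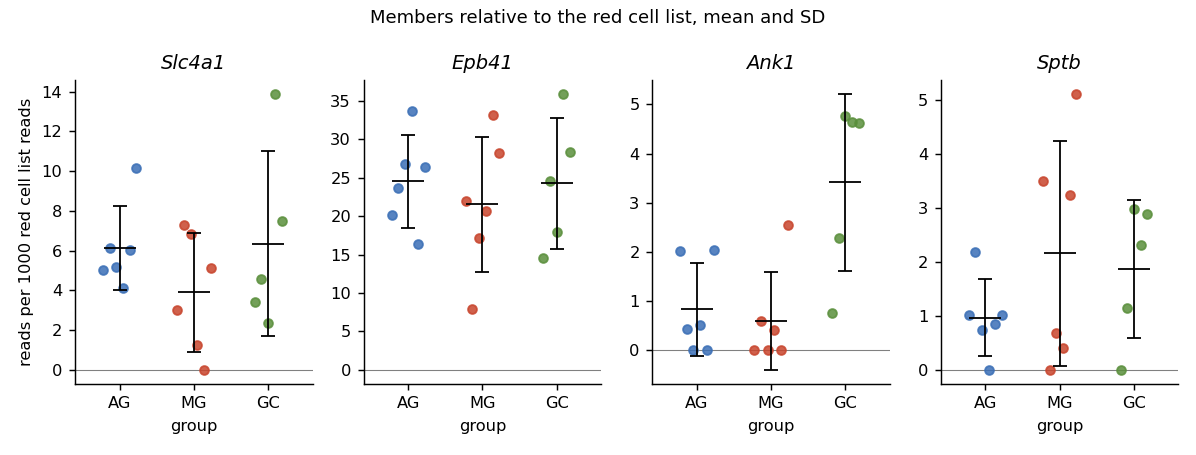
Reads of 4 skeleton genes per 1000 reads of the red cell list (y axis) in each library (points) of AG, MG and GC, with mean and SD as black bars. Epb41 has medians of 25.0, 21.4 and 24.6 in the 3 groups, and the ranges of all groups overlap for each gene.

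The tested genes of the red cell list stood on the same side as the pair in MG against AG. All 11 had a negative log2 fold change, with a median of -0.996 beside 0.17 over all 272 genes, and 5 of 11 met the criterion as lower, 0 as higher, where 8.46% of all genes were called lower. They were Bpgm (-1.68), which makes 2,3-bisphosphoglycerate, the mitochondrial iron carrier Slc25a37 (-1.54), the ubiquitin ligase Ube2o (-1.43), the heme synthesis enzyme Alas2 (-1.32) and the beta globin Hbb-bt (-1.26). In AG against GC all 11 were positive, with a median of 0.91 beside -0.21 over all genes, and 3 met the criterion as higher, beside 6.25% of all genes: Bpgm (1.85), Slc25a37 (1.11) and Ube2o (1.08). Bpgm was the only one of the 11 with an adjusted p under 0.05 (edgeR, 0.0335). In MG against GC 1 of 11, Hbb-bt, met the criterion, as lower (-1.13), beside 0.735% of all genes, and the median was -0.16. The members' own log2 fold changes of -1.50 and -1.08 fell within the span of these 11 genes. Chosen with earlier results known, the list gives no independent evidence of direction.

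**Figure D5:**
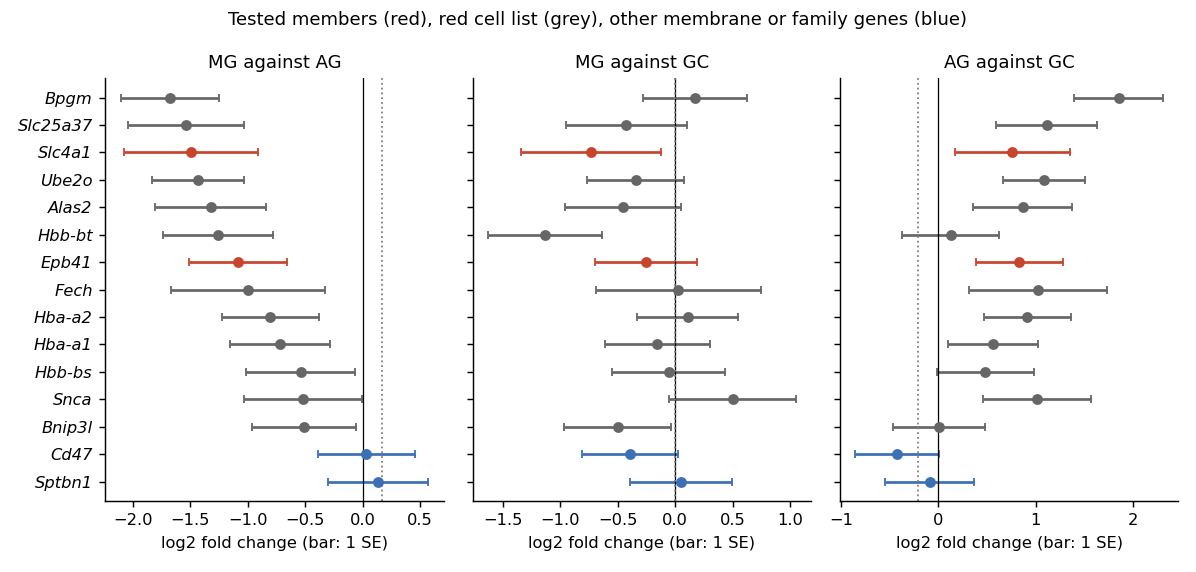
Log2 fold change with 1 SE (x axis) of the 2 tested skeleton genes (red), the 11 tested red cell list genes (grey) and Cd47 and Sptbn1 (blue) in the 3 comparisons; the dotted line is the median of all 272 genes. In MG against AG all red and grey points lie below 0, and the blue points lie at 0.031 and 0.14.

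Ank1, the adaptor between band 3 and spectrin, had its highest mean in GC. In mean TMM-CPM this differed from Slc4a1 and Epb41, which were highest in AG. On mean RPKM GC was highest for that pair as well, by less than the spread. Ank1 lies on chr8:22974844-23150497, plus strand, with 13527 exonic bases. The GC libraries had 2, 4, 8, 4 and 8 reads, the MG libraries 0, 1, 0, 1, 0 and 1, and the AG libraries 6, 1, 0, 1, 0 and 2. Every MG library was below every GC library in reads, in TMM-CPM and in RPKM, and AG overlapped both. Mean TMM-CPM was 30.5 ± 15.6 for GC, 3.49 ± 4.01 for MG and 15.4 ± 20.6 for AG.

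The 26 reads in GC against 3 in MG gave a ratio of 9.78 after scaling (95% counting interval 3.0 to 50.5). That interval covers counting error only, not the spread between mice. The fitted log2 difference of MG minus GC was -3.09, with a 95% interval from its SE of -4.98 to -1.20. In the fit on 6270 genes Ank1 in MG against GC met the criterion and did not pass after adjustment (edgeR, adjusted p = 0.313). It was the only one of the 5 genes to meet it there, beside 3.83% of all 6270 genes lower in MG and 13.6% in either direction, while 0.159% passed the adjusted threshold. With limma on log2(RPKM + 1) the log2 fold change was -0.14, and Ank1 no longer met the criterion. Every MG library lay below every GC library in 0.0957% of these genes (6 of them). Per 1000 red cell list reads the groups overlapped, with MG the lower in 28 of 30 pairs of libraries. MG against AG, with 10 reads in AG, and AG against GC did not meet the criterion (edgeR, adjusted p = 0.425 and adjusted p = 0.557). Both rested on single libraries. Without AG 1 the log2 fold change went from -1.79 to -0.80 in MG against AG, and from -1.30 to -2.24 in AG against GC, which then met the criterion (edgeR, adjusted p = 0.460). Without AG 3 or AG 5 MG against AG met it, at -2.07 and -2.02 (edgeR, adjusted p = 0.446 and adjusted p = 0.436). AG against GC also met it scaled to the red cell list (-1.95) and with limma on log2(RPKM + 0.1) (-0.70).

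Skeletal muscle markers, given here because muscle also uses Ank1, were higher in most GC than in MG libraries. Their summed level was 12.3 to 22.8 TMM-CPM in MG, 4.17 to 70.2 in GC and 18.3 to 262 in AG. The GC libraries were at 58.4, 33.4, 24.8, 70.2 and 4.17, of which 4 lay above every MG library, and GC 5, the lowest, had 8 Ank1 reads. AG 1, the AG library with the most Ank1 reads, had the highest muscle level. Of 8 muscle markers 7 had reads, 98 in all, with Mylpf at 0, and their part in the Ank1 result was not tested. The gene Mir486, which lies within an intron of Ank1, had 0 reads and an RPKM of 0 in every library. So did Mir3107, which is annotated within Mir486 on the opposite strand. How reads matching both were assigned is not given, so these zeros do not show that the microRNA was absent. The 5 genes annotated over Ank1 had 0 reads together.

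Sptb, the beta chain of spectrin, showed no difference between groups that these reads could resolve. It lies on chr12:76580488-76710547, minus strand, with 12147 exonic bases. It had 3, 5, 2, 0, 1 and 1 reads in AG, 7, 0, 1, 1, 4 and 2 in MG, and 0, 2, 5, 2 and 5 in GC. Mean TMM-CPM was 14.8 ± 9.21 for AG, 14.1 ± 12.5 for MG and 15.9 ± 12.2 for GC, and the 3 ranges overlapped. The ratio of GC to MG was 1.05 with a 95% counting interval of 0.471 to 2.34, which covers counting error only. The fitted log2 difference of MG minus GC was -0.24, with a 95% interval from its SE of -1.94 to 1.45, and differences within it could not be resolved. The 2 genes annotated over Sptb lie on the opposite strand, and Plekhg3, which holds all 8 of their reads, shares only its last base with Sptb.

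Epb42, whose product binds band 3 and ankyrin, was at the limit of detection. Its gene lies on chr2:121017891-121037072, minus strand, with 5417 exonic bases. It had 2 reads in AG 4, 1 in AG 5 and 2 in GC 1, and 0 in the other 14 libraries, including all 6 of MG. With group sums of 3, 0 and 2 reads no fold change is given. In the fit on 6270 genes it met the criterion in MG against AG (edgeR, adjusted p = 0.340) on those 3 reads, the only one of the 5 genes to do so there, beside 3.19% of all genes lower in MG. In AG against GC 0 of 5 met it, beside 12.2% of all genes, with 764 genes at an unadjusted p under 0.05.

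Other genes of the same membrane were shallow as well. Of 27 further membrane and skeleton genes 25 had reads, 649 in all. Their summed level was 172 to 323 TMM-CPM in AG, 197 to 373 in MG and 199 to 321 in GC, which overlapped throughout. Only Cd47, a membrane protein of nearly all cells, passed the filter on low counts, and it met the criterion in 0 of 3 comparisons.

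With at least 5 reads 15 of these 27 genes could be tested. In MG against AG 2 of 15 were lower by the criterion and 0 higher, beside 3.19% of all 6270 genes lower and 13.1% in either direction, with a median log2 fold change of 0.18 beside 0.34 over all 6270 genes. They were the adhesion molecule Bcam, with 9 reads in AG and 1 in MG, and Dmtn (dematin, an actin bundling protein of the skeleton), with 3 and 0. In MG against GC only Dmtn met it, lower, with 5 reads in GC and 0 in MG, beside 3.83% of all genes, and the median was -0.088 beside 0.22. In AG against GC 0 of 15 met it, beside 12.2% of all genes. None of the 15 passed after adjustment (edgeR).

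Relatives of the 5 genes that serve other cells gave a comparison outside the red cell. Of 18 such genes 15 had reads, 392 in all, and Sptbn1, the beta spectrin of most other cells, alone passed the filter. Its TMM-CPM was 75.8 ± 39.9 for AG, 81.3 ± 38.6 for MG and 79.3 ± 24.2 for GC, and its log2 fold change in MG against AG was 0.14 (SE 0.44; edgeR, adjusted p = 0.976). Of the 10 relatives with at least 5 reads, 0 met the criterion in MG against AG, beside 13.1% of all genes. In MG against GC Epb41l1 and Epb41l3, relatives of protein 4.1, met it as higher on 4 and 5 MG reads against 0 in GC (edgeR, adjusted p = 0.353 and adjusted p = 0.314), beside 9.79% of all genes higher in MG. In AG against GC the bicarbonate carrier Slc4a4 met it as higher, on 6 reads against 0, and Epb41l4b as lower, on 0 against 7 (edgeR, adjusted p = 0.402 for both), beside 12.2% of all genes.

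Erythroid transcription factors and their cofactors, listed together with the erythropoietin receptor gene Epor, were nearly unread. Of 9 listed genes 7 had reads, 66 in all, and none passed the filter on low counts. Gata1 had 6 reads in 5 libraries and Klf1 0 reads. Their summed level ran from 5.77 to 141 TMM-CPM for AG (median 31.2), 5.19 to 32.5 for MG (15.6) and 18.5 to 33.4 for GC (21.9), with overlapping ranges and the highest value in AG 5. With at least 5 reads 6 could be tested. In MG against AG 5 had a negative and 1 a positive log2 fold change, with a median of -1.12 beside 0.34 over all genes, and none of the 5 met the criterion. The other, Tal1, with 0 reads in AG, 5 in MG and 4 in GC, met the criterion as higher in MG than in AG and as lower in AG than in GC. Lmo2 met it as higher in AG than in GC, on 4 reads against 0. Of all 6270 genes, 619 met it as higher in MG against AG. In AG against GC 365 met it as higher and 399 as lower. None of the 6 passed after adjustment (edgeR).

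Markers of other cells that plasma could hold varied between libraries, and Pf4 and Alb met the criterion. Platelet genes summed to 344 to 3463 TMM-CPM in AG, 1500 to 3787 in MG and 1585 to 4450 in GC, and all 14 had reads. Of 10 tested 1, Pf4, met the criterion in MG against AG, as higher (1.09), beside 13 of all 272 genes. Leukocyte genes summed to 108 to 406, 129 to 305 and 100 to 323, with Cd3e, Elane and Camp at 0. Liver genes, all 12 with reads, summed to 13.5 to 3067 in AG, 33.6 to 4028 in MG and 68.3 to 120 in GC, the highest being AG 6 and MG 6. Of these only Alb passed the filter. It met the criterion as higher in MG (4.27, edgeR, adjusted p = 0.604) and in AG (3.43, edgeR, adjusted p = 0.366) than in GC. Of all 272 genes, 10 met it as higher in MG against GC and 17 in AG against GC. Without AG 6 and MG 6 Alb was 2.03 in MG against GC and 0.056 in AG against GC, the latter no longer past the criterion. It then met the criterion in MG against AG (1.97, edgeR, adjusted p = 0.231). Without these 2 libraries Slc4a1 and Epb41 still met the criterion in MG against AG, and the part of the other markers was not tested.

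Slc4a1 and Epb41 followed partly different genes across the 17 libraries. In log2 TMM-CPM the 5 genes most like Slc4a1, of 271, were Pabpc1 (Pearson r = 0.82), Ube2o (0.81), Fech (0.79), Fam46c (0.76) and Polr2m (0.74). Those most like Epb41 were Dcaf12 (0.88), Alas2 (0.85), Mkrn1 (0.81), Ucp2 (0.76) and Hba-a2 (0.76). The pair correlated with each other at 0.49. These values describe libraries that share depth, scaling and groups, and carry no test.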

How the data were processed

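Plasma RNA was made into libraries with a small RNA kit because it was degraded. The authors mapped paired reads to mm10 (GRCm38) in CLC Genomics Workbench. Counts were deposited as unscaled reads on each gene. Deposited RPKM values divide these by gene length and mapped reads, and the TPM values that the authors also deposited were not used. Trimming, strand and the handling of reads with several matches are not given in the sources used here. In 579 genes, RPKM was above 0 although no read was counted.

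Differences were tested with edgeR 4.0.16 in R 4.3.3 (TMM scaling, filterByExpr, quasi-likelihood F-test, all 17 libraries in one fit, no covariate, Benjamini-Hochberg adjustment). The biological coefficient of variation was 0.574. TMM-CPM refers to the reads of the 272 tested genes. Genes under the filter were tested in a second fit on genes with at least 5 reads. The study's software ran an exact test. Alternatives here were the exact test of edgeR, DESeq2 1.42.0 and limma 3.58.1 with pseudocounts of 1 and 0.1, other scalings and filters, and leaving out each library. The fit was also run on simulated counts with known changes. Its outcome is not given here and vouches for none of the calls above. Each library is 1 mouse. Counting intervals are exact at 95% and cover counting error only. The 5 genes and all lists were chosen with earlier results of these data known. Named genes were the 5 genes, listed genes meeting the criterion, Gata1, Klf1 and the microRNA genes, and some genes under that rule are not reported here. Those named in the fit on genes with at least 5 reads, and Cd47 and Sptbn1, were named after their values were seen.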

Additional observations from a re-analysis of the deposited data

How the results depend on the processing

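Read depth limits most of what can be said of Ank1, Sptb and Epb42, which had 39, 41 and 5 reads. The number of skeleton genes with an adjusted p under 0.05 was 0 in each alternative, counted over Slc4a1 and Epb41, or over all 5 genes under the 2 wider filters. In MG against AG 2 skeleton genes met the criterion, and this became 0 without a scaling factor, 0 scaled to the red cell list, and 0 with limma at either pseudocount. It became 1 (Epb42, not Slc4a1 or Epb41) with genes of at least 5 reads and 1 with no filter beyond 1 read. In MG against GC the number went from 0 to 1 (Ank1) under those same 2 filters, which test 5 of the genes in place of 2. In AG against GC it went from 0 to 1 (Epb41) with the genes above 5% left out, DESeq2, the exact test, only the 2 groups in the fit, the replicate block, and AG 6 and MG 6 both left out, the last chosen after seeing the data. Apart from what the alternatives' own construction shows, the cause was not tested.

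Leaving out 1 library gave Ank1 values of -2.07 to -0.80 in MG against AG and of -2.24 to -1.04 in AG against GC, with calls gained without AG 1, AG 3 or AG 5. Its call in MG against GC ended with limma at a pseudocount of 1 (-0.14). Directions turned in values that were not called. Sptb in MG against AG was -0.044 and became 0.82 without a scaling factor, 0.91 scaled to the red cell list, 0.054 with the genes above 5% left out, 0.026 with no filter beyond 1 read, 0.041 in the exact test and with 2 groups, and 0.014 and 0.054 with limma at pseudocounts of 1 and 0.1. Leaving out 1 library gave -0.62 to 0.34. In MG against GC it was 0.053 unscaled and 0.071 on the red cell list (-0.82 to 0.12 leaving out 1 library), and in AG against GC -0.62 to 0.17 leaving out 1 library. Slc4a1 in AG against GC became -0.059 unscaled and -0.024 on the red cell list. Epb41 there became -0.11 unscaled, -0.0028 and -0.012 with limma.

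Replicate numbers are shared by the groups, but same-numbered samples deviated together only in some cases. Correlations ran from -0.47 to 0.59 and were 0.46, 0.59 and 0.48 for replicate 1 in the 3 pairs of groups. Since not every pair did so and the labels name no shared batch, the numbers were not taken as a pairing. Under the replicate block Epb41 in AG against GC was 0.88 (edgeR, adjusted p = 0.390).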

Other observations

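The microRNA genes Mir451a and Mir144, a cluster that red cell precursors transcribe strongly, had a count of 0 in every library, while the RPKM was above 0 in every library for Mir451a and in some for Mir144. Mir451a ran from 74.9 over a median of 753 to 1576 RPKM in AG, from 68.6 over 133 to 335 in MG, and from 24.7 over 122 to 283 in GC. Mir144 ran from 5.24 to 47.7 in AG, from 0 to 6.19 in MG and from 0 to 5.57 in GC. AG held the highest libraries of both, and its range overlapped those of MG and GC. These values entered no test.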
